A study of Mus musculus with 2 samples.

Results

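Genes of the major histocompatibility complex (MHC) class II pathway were followed through mouse bone marrow progenitors, cell class by cell class. They were Cd74, H2-Aa, H2-Ab1, H2-Eb1, H2-DMa, H2-DMb1 and the regulator Ciita. The members were the 7 rows of the deposited matrix with these gene symbols, of 31053 rows in all, and they were chosen by name and not by their values. The study sorted Lineage-, c-Kit+, Sca1- cells, called LKS-, a gate that holds committed myeloid, erythroid and megakaryocyte progenitors, from hind-limb marrow of C57BL/6 mice. It made 1 single-cell library labelled Runx1 KO and 1 Control library, the Control from marrow of 1 Runx1f/f and 1 Runx1f/- mouse mixed together. The sources used here do not give the number of mice behind the KO-labelled library, the age of the mice or the promoter that drives any recombinase. A further label field calls the cells embryonic; the fields that name bone marrow were followed.

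MHC class II molecules present peptides taken up from outside the cell to CD4+ T cells. H2-Aa and H2-Ab1 encode the alpha and beta chains of the I-A molecule, and H2-Eb1 the beta chain of I-E, whose alpha chain gene is not functional in C57BL/6 mice. Cd74, the invariant chain, guards the peptide groove on the way through the cell, and H2-DMa and H2-DMb1 form the molecule that loads peptide. Ciita is the coactivator that switches the pathway on, by joining the RFX, CREB and NF-Y proteins bound to the X and Y boxes of class II promoters. Dendritic cells, macrophages and B cells are the main carriers.

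Promoter windows of RefSeq (build GRCm38.p6, 250 bases before to 50 bases after a start site) were found for 4 of the 7 genes, and the windows of 3 held the X-box-like letters CTNGNAAC followed by the Y-box-like letters TGATTGG, in capitals here. They are shown because they are the sequence feature that these members share, at chr17:34287857-34287917 on the minus strand for H2-Aa, chr17:34305763-34305822 on the plus strand for H2-Eb1 and chr17:34153084-34153144 on the plus strand for H2-DMb1.
H2-Aa: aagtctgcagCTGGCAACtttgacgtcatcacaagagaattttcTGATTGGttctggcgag
H2-Eb1: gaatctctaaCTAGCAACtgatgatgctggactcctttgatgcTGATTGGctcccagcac
H2-DMb1: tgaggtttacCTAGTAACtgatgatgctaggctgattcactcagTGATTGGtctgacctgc
The letters between the boxes numbered 26, 25 and 26. The first base of the X-like letters lay 84 bases before the RefSeq start of H2-Aa, 94 before that of H2-Eb1 and 97 before that of H2-DMb1. For H2-DMb1 this start, 34153191, lies 119 bases downstream of the GENCODE gene start given with the gene positions, so the stretch shown lies inside the GENCODE gene; for H2-Aa and H2-Eb1 both annotations have the same start. Both motifs were searched on both strands, they do not overlap each other, and they were chosen after these windows had been read. Of 32851 windows of the same length, 13.2% held the X-like letters and 7.82% the Y-like letters. The pair in this order, on the gene's strand and at most 40 bases apart, stood in 17 windows (0.0517%) of 15 genes, of which 4 were class II genes, H2-Ob besides the 3 shown. The 2 H2-DMa windows held neither motif, which says only that these letters are not there. A match is a description and not a shown binding site.

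The matrix held 7889 cells and 145590840 unique molecular identifiers (UMIs, counted transcripts) for the KO-labelled library, and 6906 cells and 162278272 UMIs for Control. The median was 16092 UMIs per cell in the KO-labelled library and 21594 in Control, and 13 cell barcodes occurred in both. Runx1 stood at 361 counts per 1000000 UMIs (CPM) in the KO-labelled library and 143 CPM in Control, a ratio of 2.53. Where in Runx1 the deletion lies is not in the labels, and counts near the 3' end do not check a deletion elsewhere. With 1 library per genotype no test between genotypes was possible, and the values below compare 2 libraries. Intervals are 95% and cover counting error only; they treat UMIs as independent, although UMIs of the same cell are not.

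Over all cells, Cd74, H2-Aa and H2-Eb1 were lower in the KO-labelled library, while H2-Ab1 stood level. Cd74 had 10.8 CPM (10.3 to 11.3) in the KO-labelled library and 49.9 CPM (48.8 to 51.0) in Control, a ratio of 0.216. H2-Aa had 3.80 CPM in the KO-labelled library and 23.4 CPM in Control (ratio 0.162, interval 0.148 to 0.178). H2-Eb1 had 3.05 CPM in the KO-labelled library and 11.6 CPM in Control (ratio 0.262, 0.236 to 0.291). H2-Ab1, the partner chain of H2-Aa, had 35.7 CPM in the KO-labelled library and 36.4 CPM in Control, a ratio of 0.980 whose interval (0.944 to 1.02) spans 1.

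The peptide-loading genes differed less between the libraries. H2-DMa had 65.7 CPM in the KO-labelled library and 86.9 CPM in Control (ratio 0.757, 0.737 to 0.776). H2-DMb1 had 24.8 CPM in the KO-labelled library and 27.9 CPM in Control (ratio 0.889, 0.851 to 0.929). Ciita, the scarcest of the 7 with 165 UMIs in the KO-labelled library and 285 in Control, stood at 1.13 CPM in the KO-labelled library and 1.76 CPM in Control (ratio 0.645, 0.529 to 0.784). Of the 7 members, 5 passed a mean of 10 CPM over the 2 libraries. By log2 of (CPM + 10), none of the 5 was called at least 1.5-fold higher, against 3.59% of all 7776 genes that passed, and 2, Cd74 and H2-Aa, were called at least 1.5-fold lower, against 1.35%. The median log2 ratio of all genes that passed was 0.0031.

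The members differed in which cells held their transcripts. The deposited annotation names 18 classes by a gene, and 6 of them are small: Cd74, Siglech, Fcrla, Vpreb1, Ccl5 and C1qb, with 20 cells (0.254%) of the KO-labelled library and 104 cells (1.51%) of Control. The Cd74 class had 7 cells, or 0.0887% (0.0357 to 0.183%), in the KO-labelled library and 56 cells, or 0.811% (0.613 to 1.05%), in Control. In the KO-labelled library the Cd74 class held 63.0% of Cd74, 67.5% of H2-Aa and 71.8% of H2-Eb1 UMIs; in Control it held 90.0% of Cd74, 90.7% of H2-Aa and 86.8% of H2-Eb1 UMIs. Fewer such cells and less RNA in each cannot be told apart from library sums alone. The level of each cell is given below as a description. The sources used here do not say how the authors assigned classes, and since a class named for Cd74 may have been drawn from these transcripts, its high class II level is a description.

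H2-DMa and H2-DMb1 lay mostly elsewhere. Outside the 6 small classes were 99.4% of H2-DMa UMIs in the KO-labelled library and 96.2% in Control. For H2-DMb1 these shares were 98.0% in the KO-labelled library and 86.7% in Control. The Cd74 class held 1.11% of H2-DMb1 UMIs in the KO-labelled library and 12.9% in Control. H2-Ab1 was split by library: 90.7% of its UMIs lay outside the small classes in the KO-labelled library and 48.1% in Control. Ciita showed the widest difference, with 12.7% of its UMIs in the Cd74 class of the KO-labelled library and 82.5% in that of Control. Without the Cd74 class the ratio was 0.800 (0.718 to 0.891) for Cd74, 0.567 for H2-Aa, 0.555 for H2-Eb1 and 1.77 for H2-Ab1. So H2-Ab1, equal over the whole libraries, and Ciita, lower over the whole KO-labelled library, were distributed over different classes in the 2 libraries.

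**Figure D1:**
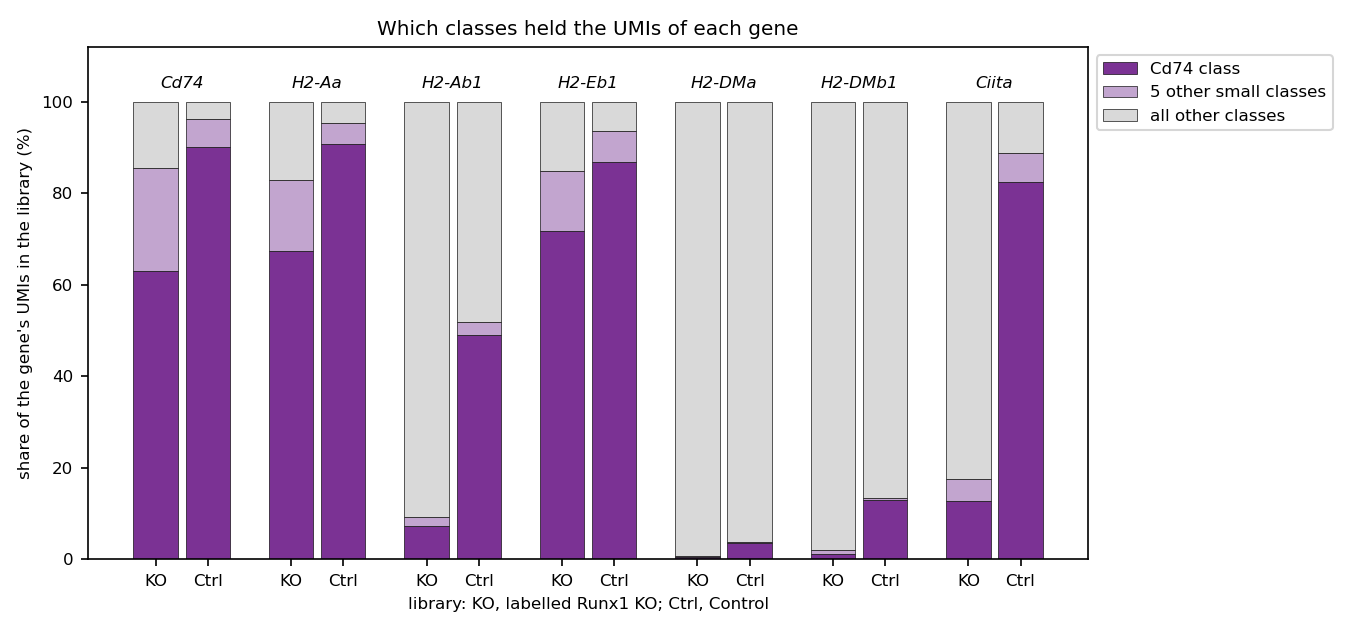
Share of each gene's UMIs (percent, y axis) that fell in the Cd74 class, in the other 5 small classes and in all other classes, for the library labelled Runx1 KO (KO) and Control (Ctrl). Cd74, H2-Aa and H2-Eb1 lay mostly in the Cd74 class in both libraries, H2-DMa and H2-DMb1 mostly outside the small classes, and Ciita had 12.7% in the Cd74 class of the KO-labelled library against 82.5% in Control.

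**Figure D2:**
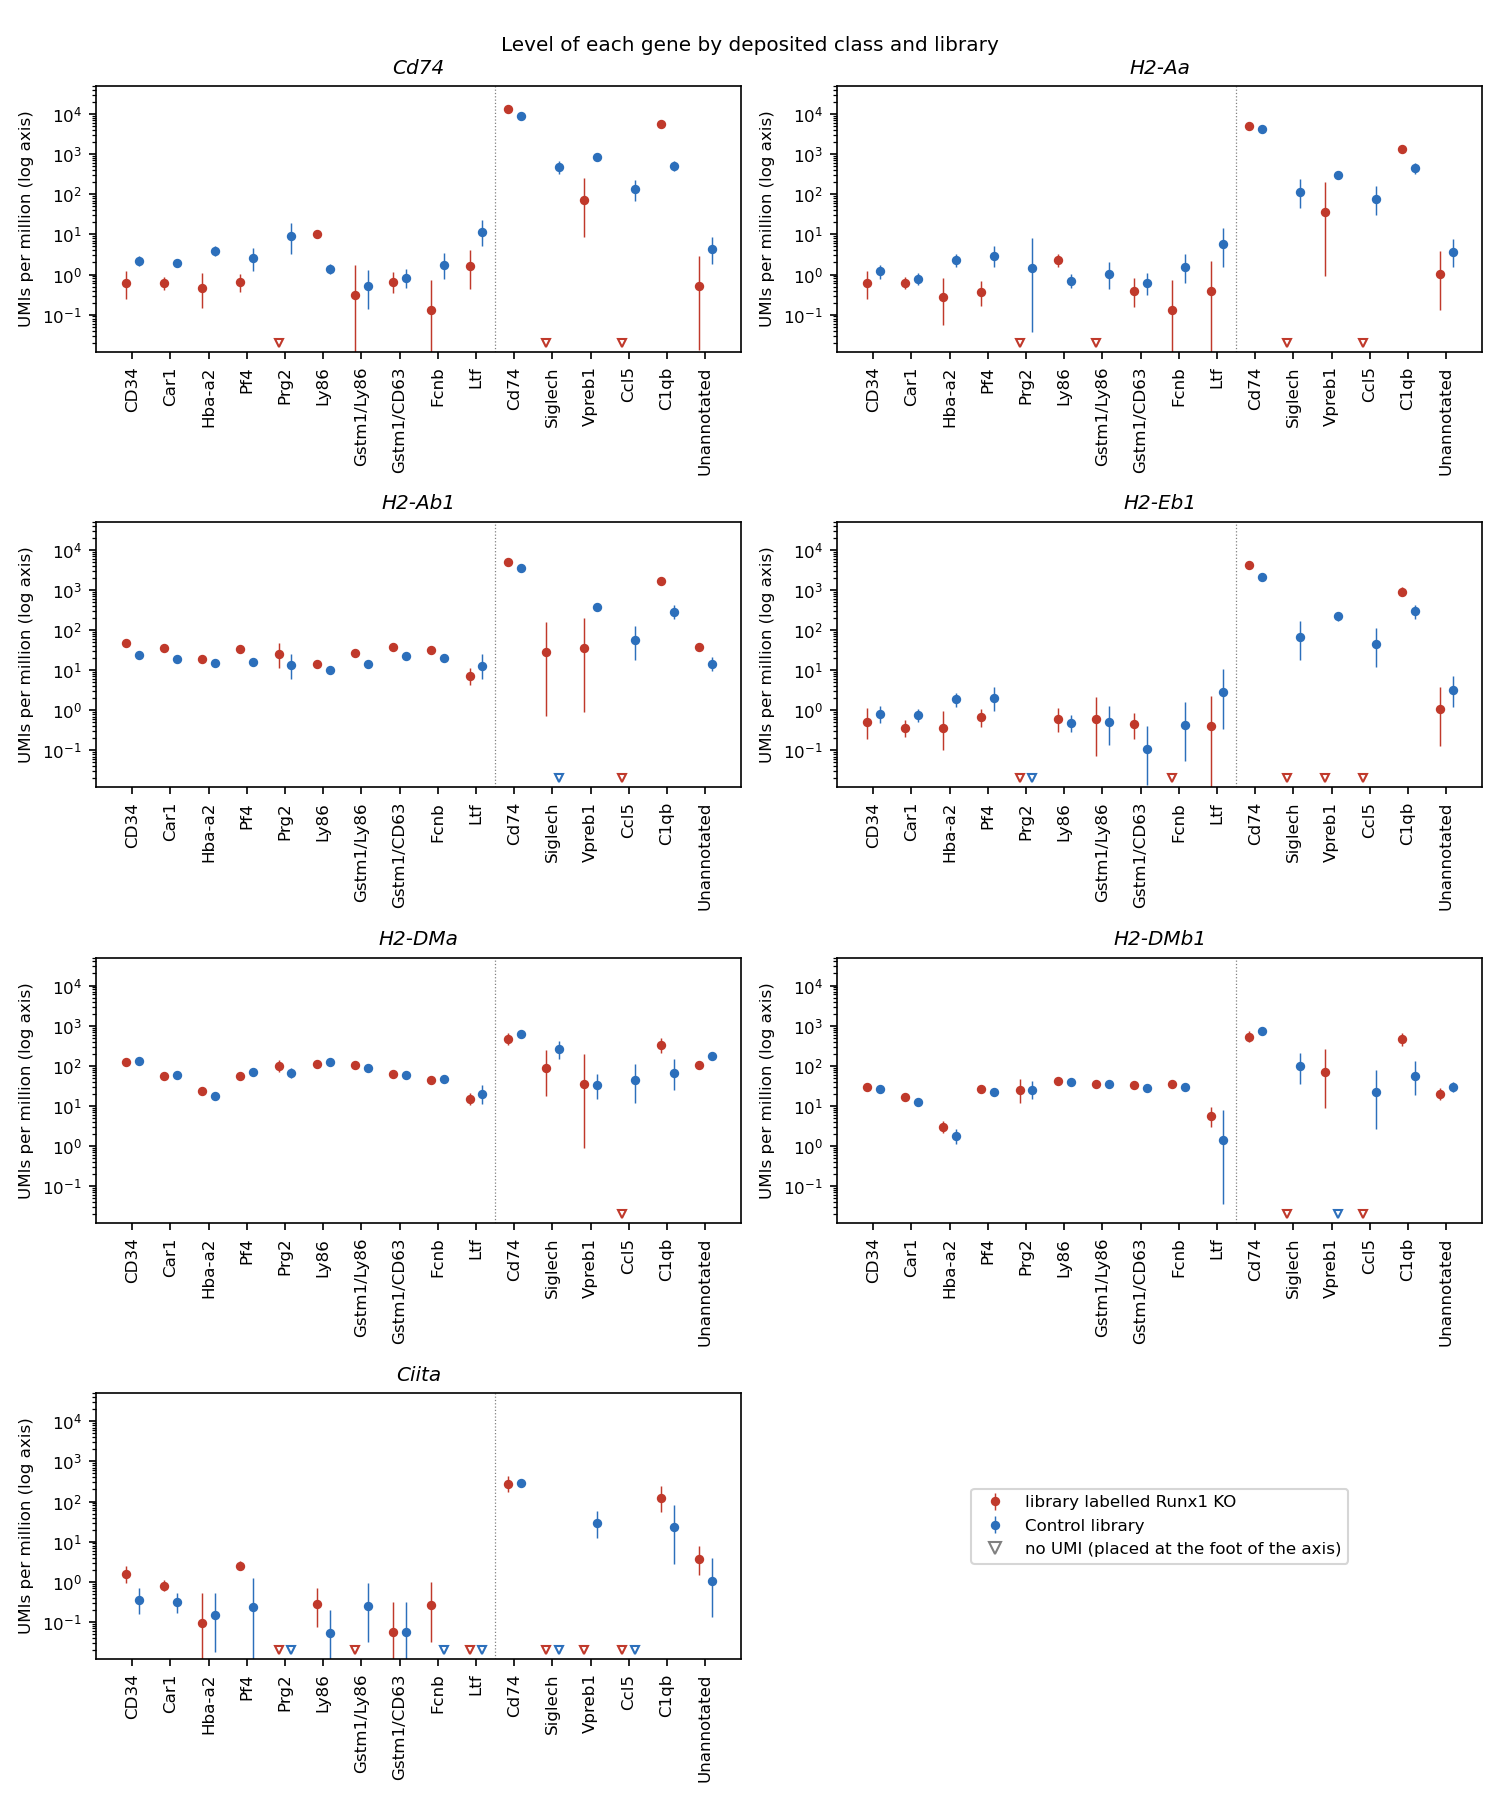
Level of each gene in CPM (log axis) by deposited class for the library labelled Runx1 KO and Control, with 95% counting intervals; classes with cells of only 1 library, or with 1 KO-labelled cell beside 337 Control cells (Prss34), are left out, and open triangles mark classes with no UMI. The small classes are to the right of the dotted line, with the unannotated cells last; Cd74 reaches 13269 CPM in the Cd74 class of the KO-labelled library and 9075 CPM in that of Control, while H2-Ab1 lies between 7.18 and 46.9 CPM in the classes to the left of the line.

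The identity of the Cd74 class was checked against marker lists. The monocyte progenitor list had the highest sum of those run, 2975 CPM in the KO-labelled library and 3795 CPM in Control, with all 6 of its markers detected and at least 1 in each of the 7 KO-labelled and 56 Control cells; in the Ly86 class it summed to 1573 CPM in the KO-labelled library and 1326 CPM in Control. Most of it was Irf8, a transcription factor of dendritic and monocyte precursors, with 1300 CPM in KO-labelled cells and 2305 CPM in Control cells, and Ccr2, a chemokine receptor of monocytes, with 925 CPM in KO-labelled cells and 855 CPM in Control cells. Of 8 dendritic cell markers, 7 were detected in the KO-labelled cells and 8 in the Control cells, at a summed 415 CPM in the KO-labelled library (0 to 774 CPM per cell) and 590 CPM in Control (0 to 2420 CPM per cell). Batf3, a transcription factor of the cross-presenting dendritic lineage, had 214 CPM in KO-labelled cells and 249 CPM in Control cells, and Clec9a, a dendritic receptor for dead cells, had 67.0 CPM in KO-labelled cells and 73.5 CPM in Control cells. The multipotent progenitor list summed to 429 CPM in the KO-labelled library and 684 CPM in Control, mostly Cd48, with the stem cell genes Hlf and Mecom at 0 in both. The B cell genes Pax5 and Ms4a1 and the macrophage genes C1qa and C1qc were at 0 in both libraries. The B cell list still summed to 483 CPM in the KO-labelled library and 321 CPM in Control, mostly Ighm. The macrophage list summed to 53.6 CPM in KO-labelled cells (3 cells with a UMI) and 6.23 CPM in Control cells (4 cells with a UMI). Over all cells it summed to 9.46 CPM in the KO-labelled library and 8.26 CPM in Control. Transcripts of mature neutrophils reached 36552 CPM in 1 Control cell and were at 0 at the median cell in both libraries. The plasmacytoid dendritic list summed to 375 CPM in KO-labelled cells and 408 CPM in Control cells, with its defining gene Siglech at 1 UMI in the KO-labelled library and 0 in Control. The neutrophil progenitor list summed to 389 CPM in KO-labelled cells and 293 CPM in Control cells. Over all cells of the KO-labelled library, the dendritic list summed to 12.9 CPM, the multipotent list to 482 CPM and the B cell list to 82.0 CPM. Over all Control cells these sums were 33.9, 394 and 123 CPM. The monocyte progenitor list summed to 220 CPM over all KO-labelled cells and 398 CPM over all Control cells. The neutrophil progenitor list summed to 7308 CPM over all KO-labelled cells and 8458 CPM over all Control cells, far above its sums in the class. The multipotent sum of the class lay below that of all cells in the KO-labelled library and above it in Control. The class thus held monocyte and dendritic markers together, above their whole-library sums. Multipotent, B cell, macrophage and neutrophil progenitor transcripts were also found, and the deposited name was kept. The part of these other transcripts in the class II levels was not tested.

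Within the Cd74 class, the cells of the 2 libraries overlapped for every member. Cd74 ranged from 3157 to 40294 CPM with a median of 14316 CPM in the 7 KO-labelled cells, and from 1983 to 23708 CPM with a median of 8301 CPM in the 56 Control cells. H2-Aa had a median of 5280 CPM (225 to 13641) in KO-labelled cells and 3751 CPM (397 to 10181) in Control cells. H2-Ab1 had a median of 6567 CPM (0 to 16160) in KO-labelled cells and 2841 CPM (0 to 11676) in Control cells. For these 3 genes the median of the KO-labelled cells was the higher, within overlapping ranges.

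H2-Eb1 had a median of 5280 CPM (225 to 12802) in KO-labelled cells and 1581 CPM (0 to 7689) in Control cells. H2-DMa had a median of 532 CPM in KO-labelled cells and 638 CPM in Control cells, and H2-DMb1 532 CPM in KO-labelled cells and 688 CPM in Control cells. Ciita, a low transcript even here, had a median of 210 CPM (0 to 784) in KO-labelled cells and 245 CPM (0 to 1582) in Control cells. All 7 members were detected together in 4 of the 7 KO-labelled cells and in 48 of the 56 Control cells. The class had 7 KO-labelled cells against 56 Control cells. The median per cell was higher in KO-labelled cells for Cd74, H2-Aa, H2-Ab1 and H2-Eb1 and lower for H2-DMa, H2-DMb1 and Ciita. If the class was drawn from these transcripts, cells low in them would lie outside it. Levels within the class therefore cannot tell fewer such cells from less RNA in each.

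**Figure D3:**
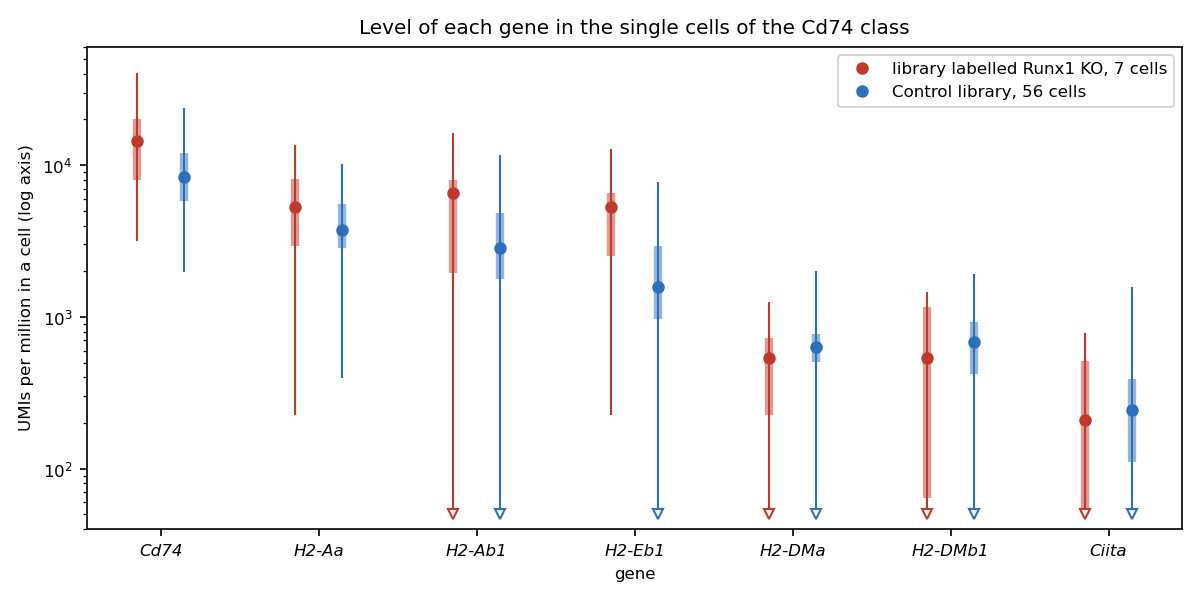
Level of each gene in CPM (log axis) in the single cells of the Cd74 class, for the 7 cells of the library labelled Runx1 KO and the 56 Control cells: points are medians, thick bars the middle quartiles, thin lines the range, and open triangles mark a lowest cell at 0. The ranges overlap for all 7 genes; the median of Cd74 is 14316 CPM in KO-labelled cells and 8301 CPM in Control cells.

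The other small classes carried the chain genes at lower and uneven levels. In the C1qb class, where the macrophage complement gene C1qa had 1222 CPM in 6 KO-labelled cells and 329 CPM in 7 Control cells, Cd74 had 5500 CPM in the KO-labelled library and 510 CPM in Control. These 6 cells held 22.3% of all Cd74 UMIs of the KO-labelled library. In the Vpreb1 class, where the B cell receptor gene Cd79a had 1900 CPM in 4 KO-labelled cells and 1325 CPM in 21 Control cells, Cd74 had 71.7 CPM from 2 UMIs in the KO-labelled library and 856 CPM in Control. The Fcrla class had 6 cells, all Control, with Cd79a at 2180 CPM and Cd74 at 4586 CPM. With so few cells these values describe the cells and not the libraries.

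Counted without regard to class, cells rich in class II transcripts were rarer in the KO-labelled library. Each cell was thinned to 5000 UMIs, which left out 346 KO-labelled and 465 Control cells, and a cell with at least 10 of these UMIs from the 6 class II members (Ciita apart) was called rich. There were 10 rich cells, or 0.133% (0.0636 to 0.244%), in the KO-labelled library and 58, or 0.900% (0.684 to 1.16%), in Control. Of these, 5 in the KO-labelled library and 51 in Control lay in the Cd74 class, and 2 in each library lay outside the small classes. Just under the limit, with 5 to 9 UMIs, were 12 KO-labelled and 22 Control cells, and just above it, with 10 to 19, were 0 KO-labelled and 4 Control cells.

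H2-Ab1 behaved differently from its partner H2-Aa in the progenitors themselves: each of the 6 classes with at least 200 cells in both libraries had more of it in the KO-labelled library. In the CD34 class, which its name gene marks as early progenitors, H2-Ab1 had 46.9 CPM in the KO-labelled library and 24.5 CPM in Control (ratio 1.92, 1.70 to 2.16). In the Car1 class, named for an erythroid carbonic anhydrase, it had 36.3 CPM in the KO-labelled library and 18.8 CPM in Control (ratio 1.93, 1.78 to 2.09). In the Pf4 class, named for platelet factor 4 of megakaryocytes, it had 34.5 CPM in the KO-labelled library and 16.0 CPM in Control (ratio 2.15, 1.69 to 2.79). Of the 6 classes, these 3 had the largest ratios.

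In the Gstm1/CD63 class H2-Ab1 had 37.0 CPM in the KO-labelled library and 23.1 CPM in Control (ratio 1.60, 1.42 to 1.82). In the Ly86 class, named for a gene of the monocyte lineage, it had 14.6 CPM in the KO-labelled library and 10.1 CPM in Control (ratio 1.44, 1.21 to 1.70). In the Hba-a2 class, the hemoglobin-producing erythroid cells, it had 19.1 CPM in the KO-labelled library and 15.3 CPM in Control (ratio 1.25, 1.02 to 1.52). All 6 intervals lay above 1, and without the 6 small classes the libraries stood at 32.4 CPM (KO-labelled) and 17.7 CPM (Control), a ratio of 1.84 (1.75 to 1.93). Of 11 classes with at least 20 cells in each library, unannotated cells included, 10 were higher and 1, Ltf, was lower, with 18 UMIs in the KO-labelled library and 9 in Control (ratio 0.551, 0.235 to 1.39).

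By the 1.5-fold rule on log2 of (CPM + 10), H2-Ab1 was the single member called higher in the CD34, Car1 and Pf4 classes, where 2.54%, 3.11% and 5.9% of all genes that passed were called higher. No member was called in the Hba-a2, Ly86 and Gstm1/CD63 classes, where 1.81%, 1.71% and 1.11% of genes were called higher. No member was called lower in any of the 6, where the shares of genes called lower were 1.19% in CD34, 1.42% in Car1, 0.699% in Hba-a2, 2.59% in Pf4, 0.711% in Ly86 and 0.553% in Gstm1/CD63. Between 2 and 3 members passed the minimum of 10 CPM in each class; Cd74, H2-Aa, H2-Eb1 and Ciita were under it in all 6, and H2-DMb1 in Hba-a2.

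**Figure D4:**
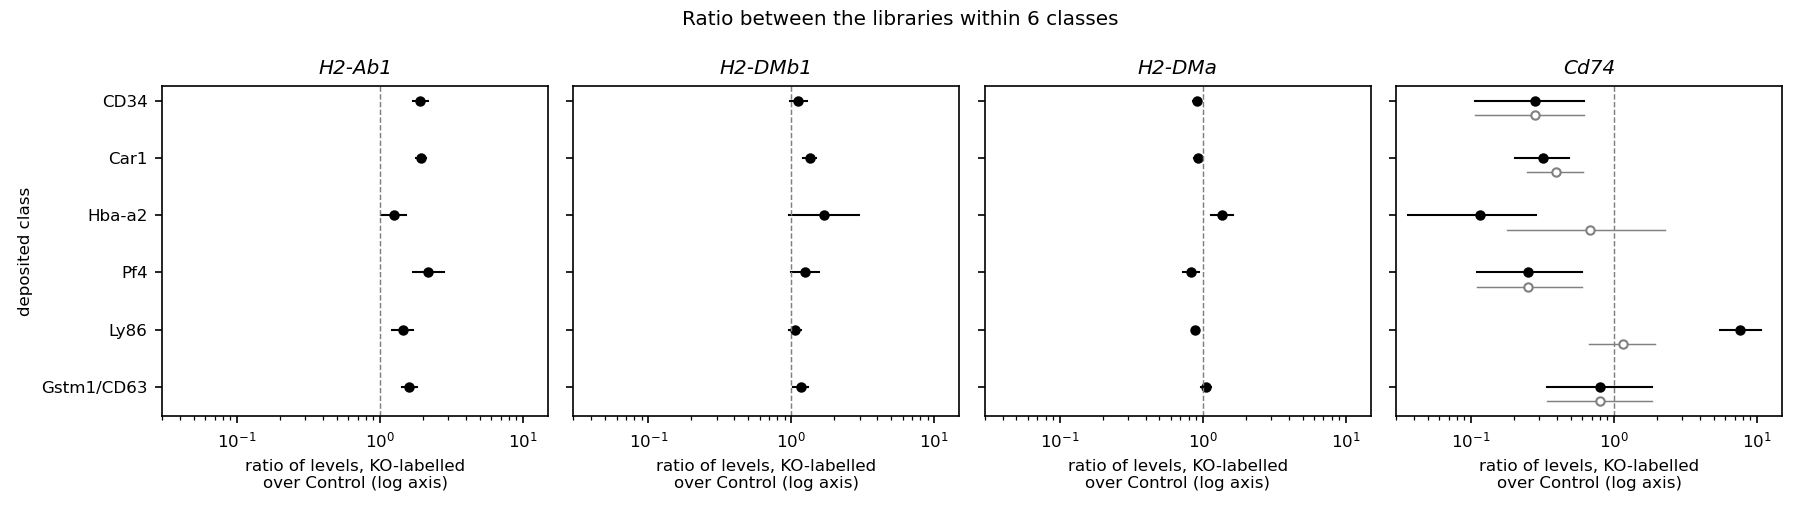
Ratio of the level in the library labelled Runx1 KO over Control (log axis) with 95% counting intervals for H2-Ab1, H2-DMb1, H2-DMa and Cd74 in 6 classes; the dashed line marks a ratio of 1 and, for Cd74, open points leave out class II-rich cells. H2-Ab1 lies to the right of 1 in all 6 classes (1.25 to 2.15), H2-DMa is on either side (0.828 to 1.37), and the Ly86 ratio of Cd74 is 7.66 with all cells and 1.16 without 2 KO-labelled cells.

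The same difference in H2-Ab1 can be given as the share of cells with a UMI, which at these low counts largely follows the mean level. At 5000 UMIs per cell, H2-Ab1 was found in 14.3% (13.5 to 15.1%) of KO-labelled cells and 9.19% (8.50 to 9.92%) of Control cells; before thinning the shares were 38.3% in the KO-labelled library and 29.4% in Control. In the CD34 class the thinned share was 21.7% in the KO-labelled library and 10.9% in Control. In the Pf4 class it was 14.6% in the KO-labelled library and 6.83% in Control.

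Erythroid cells are not known to present antigen by class II, so the shares in the Car1 and Hba-a2 classes are set beside the others. By the marker lists, the Car1 class was not alike in the 2 libraries. Its erythroid list summed to 600 CPM in the KO-labelled library and 2461 CPM in Control. Its megakaryocyte list summed to 642 CPM (KO-labelled) and 255 CPM (Control), and its multipotent list to 425 CPM (KO-labelled) and 213 CPM (Control). The part of this difference in the Car1 values of H2-Ab1 was not tested. In the Car1 class, with median depths of 14621 UMIs in the KO-labelled library and 15394 in Control, H2-Ab1 was found in 15.2% (13.9 to 16.5%) of thinned KO-labelled cells and 8.39% (7.24 to 9.66%) of thinned Control cells. In the Hba-a2 class, with median depths of 37146 UMIs in the KO-labelled library and 51295 in Control, it was found in 5.78% of thinned KO-labelled cells and 5.51% of thinned Control cells, and these shares did not separate the libraries. Cd74 was found in 0.377% of thinned KO-labelled and 0.572% of thinned Control cells of the Car1 class. The interval of the KO-labelled Hba-a2 share (3.4 to 9.1%) lay below that of the KO-labelled Car1 share, while in Control the Hba-a2 interval (3.12 to 8.93%) overlapped it. The thinned share in the Ly86 class was 6.10% (4.24 to 8.46%) in the KO-labelled library and 5.59% (4.37 to 7.02%) in Control, with intervals below those of Car1 in both libraries and overlapping those of Hba-a2. The CD34 share lay above the Car1 share in the KO-labelled library (18.6 to 25.1% for CD34) and overlapped it in Control (9.08 to 13%), and the Pf4 share overlapped it in both. No level of free RNA was measured, so its part in these shares was not tested.

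The proportions of the class II genes to each other also differed between the Cd74 class and the progenitors. For every 100 Cd74 UMIs, the Cd74 class held 37.7 H2-Aa UMIs in the KO-labelled library and 47.2 in Control; outside the 6 small classes there were 41.0 in the KO-labelled library and 57.8 in Control. H2-Eb1 had 32.2 UMIs per 100 Cd74 UMIs in the Cd74 class of the KO-labelled library and 22.5 in that of Control; outside the small classes it had 29.3 in the KO-labelled library and 40.5 in Control. H2-Ab1 stood apart: 37.7 per 100 in the Cd74 class of the KO-labelled library and 39.7 in that of Control, but 2059 outside the small classes in the KO-labelled library and 944 in Control. The KO-labelled values outside the small classes rest on 2 rich Ly86 cells, which held 81 and 48 of the 229 Cd74 UMIs there. Without rich cells there were 64.0 H2-Aa, 60.0 H2-Eb1 and 4698 H2-Ab1 UMIs per 100 Cd74 UMIs in the KO-labelled library, and 61.0 H2-Aa, 39.4 H2-Eb1 and 1168 H2-Ab1 UMIs in Control. With or without them, the ratio of H2-Ab1 to Cd74 outside the small classes was many times that of the Cd74 class in both libraries, while those of H2-Aa and H2-Eb1 stayed within 2-fold of it.

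**Figure D5:**
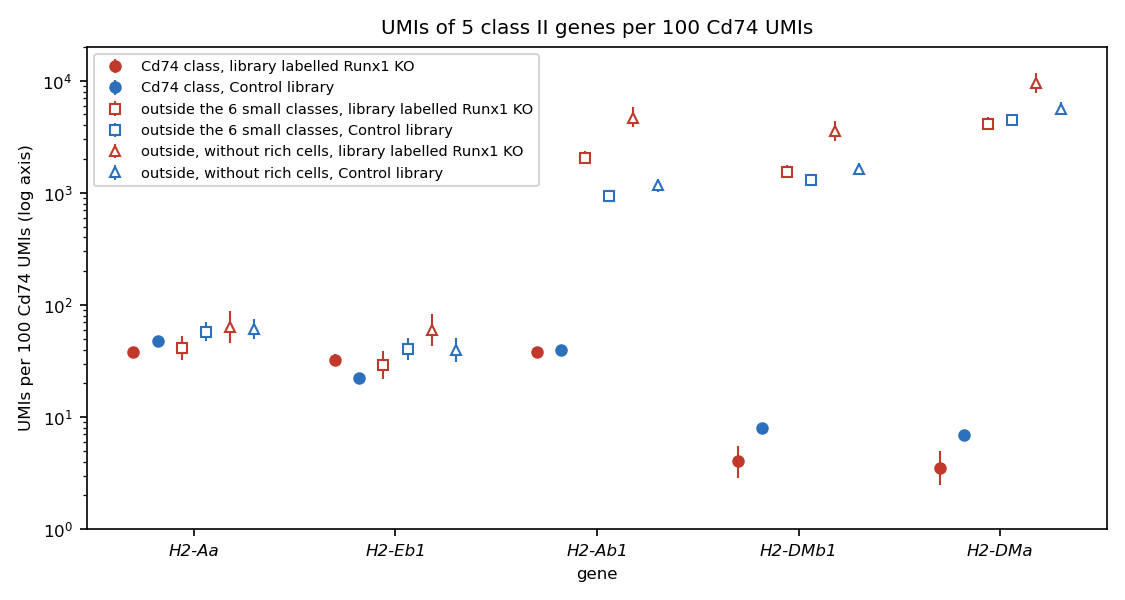
UMIs of 5 class II genes for every 100 Cd74 UMIs (log axis), in the Cd74 class (filled circles), outside the 6 small classes (open squares) and there without rich cells (open triangles), for the library labelled Runx1 KO and Control, with 95% counting intervals. H2-Aa and H2-Eb1 lie between 22.5 and 64.0 in all 3 sets, while H2-Ab1 has 37.7 (KO-labelled) and 39.7 (Control) in the Cd74 class, 2059 (KO-labelled) and 944 (Control) outside the small classes and 4698 (KO-labelled) and 1168 (Control) there without rich cells.

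Cd74, H2-Aa and H2-Eb1 were scarce in the progenitor classes, and mostly lower in the KO-labelled library. Of the 6 classes, the ratio was below 1 in 5 for Cd74, in 5 for H2-Aa and in 4 for H2-Eb1. Cd74 had 0.604 CPM in the KO-labelled library and 1.89 CPM in Control in the Car1 class (ratio 0.319, 0.203 to 0.489). In the CD34 class it had 0.612 CPM in the KO-labelled library and 2.18 CPM in Control (ratio 0.281, 0.107 to 0.623). In the Pf4 class it had 0.637 CPM in the KO-labelled library and 2.52 CPM in Control (ratio 0.253, 0.110 to 0.603). All 3 intervals lay below 1, on 7 to 30 Cd74 UMIs in the KO-labelled library and 11 to 85 in Control. H2-Aa had 0.358 CPM in the KO-labelled library and 2.97 CPM in Control in the Pf4 class (ratio 0.120, 0.0454 to 0.305), and 0.624 CPM in the KO-labelled library and 0.779 CPM in Control in the Car1 class (ratio 0.801, 0.478 to 1.34).

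A few single cells decided other values of Cd74. In the Ly86 class Cd74 had 10.4 CPM in the KO-labelled library and 1.35 CPM in Control, a ratio of 7.66 (5.53 to 10.8). Of the 152 Cd74 UMIs of the KO-labelled Ly86 class, 81 and 48 came from 2 rich cells; without them the class had 1.57 CPM in the KO-labelled library and 1.35 CPM in Control (ratio 1.16, 0.676 to 1.94). H2-Aa there changed in the same way, with a ratio of 3.20 with all cells and 0.291 (0.0564 to 0.949) without these 2. In the pair, all 6 monocyte progenitor markers, which include Irf8, were detected, at a summed 4045 CPM. Of these, Ccr2 had 1445 CPM and Csf1r, the receptor of macrophage colony-stimulating factor, 520 CPM. The dendritic list summed to 116 CPM, with 7 of 8 markers at 0, and the B cell list to 462 CPM. The 2 cells held only 9004 and 8300 UMIs, so a marker at 0 says little. In the Hba-a2 class, 44 of 53 Control Cd74 UMIs came from 1 cell; the ratio was 0.116 with it and 0.682 (0.179 to 2.26) without it.

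The peptide-loading genes were spread over the progenitors in both libraries. Among the 6 compared classes H2-DMa was highest in CD34 and Ly86: 123.5 CPM in the KO-labelled library and 134.5 CPM in Control in the CD34 class, and 109 CPM in the KO-labelled library and 123 CPM in Control in the Ly86 class. It was lowest of the 6 in the Hba-a2 class, with 23.9 CPM in the KO-labelled library and 17.4 CPM in Control (ratio 1.37, 1.14 to 1.64). The ratio was below 1 in 4 of the 6 classes, with intervals that lay under 1 in each: 0.918 in CD34, 0.927 in Car1, 0.828 in Pf4 and 0.888 in Ly86. In Gstm1/CD63 it was 1.06 (0.974 to 1.15). These within-class ratios were nearer to 1 than the whole-library ratio of 0.757, and with classes weighted alike in both libraries the ratio was 0.886.

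H2-DMb1, the partner chain, was above 1 in all 6 classes, with ratios from 1.06 in Ly86 to 1.69 in Hba-a2. The Hba-a2 ratio rests on 33 UMIs in the KO-labelled library and 24 in Control, with an interval of 0.969 to 2.99. The interval lay above 1 in 2 of the 6 classes. In the Car1 class H2-DMb1 had 16.7 CPM in the KO-labelled library and 12.4 CPM in Control (ratio 1.34, 1.2 to 1.5), and in Gstm1/CD63 33.1 CPM in the KO-labelled library and 28.4 CPM in Control (ratio 1.16, 1.03 to 1.31). Its highest level among these classes was in Ly86, with 42.7 CPM in the KO-labelled library and 40.1 CPM in Control. The near-identical gene H2-DMb2 had 0.398 CPM in the KO-labelled library and 1.16 CPM in Control; the labels do not say how reads shared by the pair were counted, so the split between them is uncertain. H2-DMa overlaps Brd2, CR974462.4 and Gm20493 on the other strand and CR974462.3 on its own strand. The labels do not say whether counting used strand, and strand alone would not separate H2-DMa from CR974462.3. Brd2 had 96.9 CPM in the KO-labelled library and 100.2 CPM in Control.

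Ciita was rare in the progenitors of both libraries but less so in the KO-labelled one. Outside the 6 small classes it had 136 UMIs, or 0.936 CPM, in the KO-labelled library and 32 UMIs, or 0.199 CPM, in Control (ratio 4.70, 3.18 to 7.15). In the Pf4 class it had 63 UMIs in 56 of 1782 KO-labelled cells and 1 UMI in 222 Control cells (ratio 11, 1.90 to 440). In the Car1 class it had 40 UMIs in the KO-labelled library and 14 in Control (ratio 2.58, 1.38 to 5.14), and in the CD34 class 18 UMIs in the KO-labelled library and 8 in Control (ratio 4.42, 1.83 to 11.8). The direction outside the small classes was thus the reverse of that in the whole libraries.

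Other members were also counted in the Ciita-positive cells of the Pf4 class. Of the 56 KO-labelled Pf4 cells with a Ciita UMI, 0 had a Cd74 or an H2-Aa UMI, which allows a share of up to 6.38% by the exact interval. The shares in the Pf4 cells without Ciita were 0.869% for Cd74 and 0.521% for H2-Aa, so a difference was not detectable with 56 cells. H2-Ab1 was found in 22 of the 56 (39.3%, 26.5 to 53.2%) and in 33.4% (31.1 to 35.7%) of the KO-labelled Pf4 cells without Ciita, a difference within counting error. In the Cd74 class all cells, with or without a Ciita UMI, had Cd74 and H2-Aa in both libraries. Dexi, which overlaps Ciita on the other strand, had 15.8 CPM in the KO-labelled library and 15.5 CPM in Control in the Pf4 class.

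Across 25 library-by-class groups of at least 20 cells, the members fell into 2 sets by their levels, log2 of (CPM + 10). H2-Eb1 and H2-Aa had a Pearson r of 1.00, Cd74 and H2-Aa 0.99, and Ciita and H2-Aa 0.98. H2-DMa and H2-DMb1 had an r of 0.87 with each other (0.79 without the Cd74 class), but H2-DMa and Cd74 only 0.41, and -0.23 without the Cd74 class. H2-Ab1 and Cd74 had an r of 0.93 with the Cd74 class and 0.77 without it. Without the Cd74 class, H2-Eb1 and H2-Aa stood at 1.00, Cd74 and H2-Aa at 0.99 and Ciita and H2-Aa at 0.95. Among the groups left was the Vpreb1 class of Control, with 21 cells. It held far more Cd74 than the other groups left, which had at most 11.6 CPM. How far the r values without the Cd74 class rest on this group was not tested. The groups share libraries and differ in depth, so these values are descriptions.

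Of other genes, Wdfy4, which is needed for cross-presentation by dendritic cells, was most like the summed class II members among 7885 genes, with an r of 0.92 over the 25 groups and 0.90 without the Cd74 class. It had 263 CPM in the Cd74 class of Control and a median of 26.6 CPM in the other groups. The Vpreb1 class of Control stayed among the groups in the value without the Cd74 class. Igkc, the kappa light chain constant region, came next with an r of 0.91; it had 3200 CPM in the Cd74 class of Control and a median of 0.243 CPM elsewhere, although Pax5 and Ms4a1 were at 0 in that class. The other 8 were Commd8, Tmem55b, Lbh, Vrk2, Itpr1, Gdi2, Gltp and Ppfia4, with r from 0.87 to 0.90. Of the 10, only Wdfy4 was also among the 10 most alike without the Cd74 class, and none was among the 10 by Spearman's rho.

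The regulators that work with or above Ciita were measured as a list of 14 genes, of which 12 passed 10 CPM over all cells, with a median log2 ratio of -0.06. Irf8 alone was at least 1.5-fold lower in the KO-labelled library, with 52.1 CPM there and 156 CPM in Control (log2 ratio -1.42), and none was higher. Over all genes that passed, 1.35% were called lower and 3.59% higher. Rfx5, a subunit of the RFX complex, had 9.62 CPM in the KO-labelled library and 10.7 CPM in Control, and Creb1, the X-box partner, 40.7 CPM in the KO-labelled library and 47.8 CPM in Control. In single classes, Irf8 was lower in CD34 (38.3 CPM in the KO-labelled library and 84.7 CPM in Control). In the Ly86 class none of the 12 regulators that passed was called lower (lowest log2 ratio -0.34) and 1 was called higher. Of all genes there, 0.711% were called lower and 1.71% higher. That class held 553 of 7889 KO-labelled and 1326 of 6906 Control cells. The part of class sizes in the whole-library value of Irf8 was not tested. In Pf4, the myeloid transcription factor Spi1 was higher, with 39.3 CPM in the KO-labelled library and 21.0 CPM in Control.

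The interferon-gamma receptor chain Ifngr1, whose signal induces Ciita, went in different directions by class. It was lower in Car1, with 153 CPM in the KO-labelled library and 263 CPM in Control, and in Hba-a2, with 82.4 CPM in the KO-labelled library and 131 CPM in Control. It was higher in Ly86, with 275 CPM in the KO-labelled library and 141 CPM in Control.

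Of 11 accessory and minor class II genes found in the matrix (13 listed), 4 passed 10 CPM over all cells, with a median log2 ratio of -0.14. None was called, against 3.59% of all genes called higher and 1.35% called lower, so no call among 4 genes says little about the list. In the Ly86 class Ctss, the protease that trims the invariant chain, was higher, with 90.2 CPM in the KO-labelled library and 47.2 CPM in Control. H2-Oa and H2-Ob, which restrain peptide loading, had 12.4 and 13.8 CPM in the KO-labelled library and 14.9 and 12.3 CPM in Control.

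The genes lie on 3 chromosomes of GRCm38. H2-DMa (34119541 to 34139101, plus strand), H2-DMb1 (34153072 to 34160230, plus), H2-Ab1 (34257689 to 34269419, plus), H2-Aa (34282744 to 34287823, minus) and H2-Eb1 (34305867 to 34316674, plus) stand in this order on chromosome 17. Ciita lies on chromosome 16 (10480059 to 10528418, plus) and Cd74 on chromosome 18 (60803848 to 60812652, plus). H2-Ab1 and H2-Aa, which were unlike each other in the progenitor classes, are neighbours in this list on opposite strands.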

How the data were processed

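The deposited matrix holds counts: UMIs per gene and cell, for both libraries. Cell Ranger and mm10 are named in the submitters' processing notes, without versions or settings. Each cell's deposited annotation gives its UMI and gene counts, its mitochondrial UMIs as a fraction, and a size factor, which is the ratio of its UMIs to a fixed value. Among other deposited values are its class and library name, as text. The library called wild type there was taken as Control. Columns of other samples numbered 0.

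Counts were summed per library and class and divided by the summed UMIs (CPM). Levels have exact Poisson intervals, ratios (KO-labelled over Control) exact conditional intervals and shares Clopper-Pearson intervals, all at 95%. Calls were 1.5-fold on log2 of (CPM + 10), among genes with a mean of at least 10 CPM. Shares of cells were taken after thinning to 5000 UMIs. Python 3.11.15, numpy 2.4.6 and scipy 1.17.1 were used, and edgeR 4.0.16 for TMM factors in an alternative. The calls and intervals were checked on simulated counts. No doublet caller was run; an alternative left out 274 cells above 3 times the median UMIs of their library and class. Gene positions came from GENCODE (GRCm38), in which 30934 of 31053 identifiers matched.

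The members, gene lists and marker lists were chosen with earlier results of these data known. Genes named besides the members were the listed pathway genes past 1.5-fold in the whole library or a compared class (and, chosen after their values were seen, a few others with stated roles), genes that overlap or nearly match a member, and the 10 with the highest Pearson r with the summed class II members, among genes with at least 100 UMIs and a mean of at least 10 CPM.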

Additional observations from a re-analysis of the deposited data

Results flagged for a closer look

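In 3 genes the libraries differed in opposite directions in different classes; with 1 library per genotype none of these differences was tested. The ratio of Cd74, KO-labelled over Control, was 7.66 in the Ly86 class and 0.116 in the Hba-a2 class. The ratio of H2-Aa was 3.20 in Ly86 and 0.119 in Hba-a2. For both genes the values rest on single cells: without 2 rich KO-labelled cells the Ly86 ratios were 1.16 for Cd74 and 0.291 for H2-Aa, and without 1 rich Control cell the Hba-a2 ratios were 0.682 for Cd74 and 0.613 for H2-Aa. The ratio of H2-DMa was 1.37 in Hba-a2 and 0.828 in Pf4, and without rich cells 1.39 and 0.828.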

How the results depend on the processing

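No paired analysis was possible because each genotype had 1 library. The ratio of the 6 summed class II members, 0.609 in the main analysis, was 0.583 without cells above 3 times the class median, 0.951 without the Cd74 class and 0.961 without the 6 small classes. Leaving out rich cells gave 0.939, and leaving out small classes and rich cells 0.957. Both were chosen after the data were seen. Cells under 5000 UMIs could not be called rich and stayed in. In the Cd74 class, 5 of the 7 KO-labelled and 51 of the 56 Control cells had enough UMIs to be called. With class levels weighted equally in both libraries, the 7 KO-labelled cells of the Cd74 class had the same share as the 56 Control cells. The sum then reversed to 1.23, Cd74 to 1.47, H2-Aa to 1.13, H2-Eb1 to 1.89, H2-DMb1 to 1.09 and Ciita to 1.42. In the Cd74 class the median per cell of H2-DMb1 and of Ciita was lower in the KO-labelled library. Which classes lay behind each reversal was not tested. H2-DMb1 reversed to 1.01 without the Cd74 class. Ciita reversed to 3.20 without the Cd74 class, 4.70 without the small classes, 3.19 without rich cells and 4.63 without both. H2-Aa in Ly86 reversed to 0.291 without rich cells. The cause was not tested beyond what these omissions show.

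The share of cells with an H2-Ab1 UMI, 14.3% in the KO-labelled library and 9.19% in Control, was 27.1% (KO-labelled) and 16.7% (Control) when thinned to 10000 UMIs, 38.3% (KO-labelled) and 29.4% (Control) unthinned, and 1.72% (KO-labelled) and 1.49% (Control) for at least 2 UMIs. The members called lower, 2, were 1 with a pseudocount of 50 CPM and 0 at a mean of at least 50 CPM, where 1 member remained to be tested; all called genes numbered 279 higher and 105 lower, 401 and 179 with a pseudocount of 1 CPM, and 104 and 31 with 50 CPM. The Cd74 class held 10.2% of class II UMIs in the KO-labelled library and 42.7% in Control, and without Cd74 5.88% in the KO-labelled library and 30.0% in Control. At a limit of 5 UMIs, rich cells numbered 22 in place of 10 in the KO-labelled library. Within classes, H2-Ab1 was higher in the KO-labelled cells of all 6 under the 4 alternatives run there. Keeping only cells under 10% mitochondrial UMIs, counting CPM outside mitochondrial and globin genes and using TMM factors moved no value beyond its interval and no count by over 1.5 times. Depth limits Ciita, Cd74, H2-Aa and H2-Eb1 in progenitors, where many classes held under 20 UMIs of them.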

Other observations

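Genes of MHC class I presentation, which every nucleated cell uses to show its own peptides, differed little between the libraries. Of 9 listed genes, 8 passed 10 CPM, with log2 ratios from -0.14 to 0.34 and a median of 0.14 over all cells. None was called, against 3.59% of all 7776 genes called higher and 1.35% called lower. At those shares, no call among 8 genes says little about the list. The heavy chain genes H2-K1 and H2-D1 had 921 and 742 CPM in the KO-labelled library and 727 and 609 CPM in Control, and B2m, their light chain, 841 CPM in the KO-labelled library and 740 CPM in Control. In the Car1 class the log2 ratios of the 8 ran from 0.14 to 0.29, with a median of 0.25. In the Hba-a2 class 2 of 8 were called higher, H2-K1 (485 CPM in the KO-labelled library and 303 CPM in Control) and B2m (637 CPM in the KO-labelled library and 419 CPM in Control), where 1.81% of all genes were. Nlrc5, the class I counterpart of Ciita, had 4.16 CPM in the KO-labelled library and 3.64 CPM in Control and was under the minimum.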
